A study of Mus musculus with 12 samples.

Results

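The comparison described here set microglia of mice labelled ZEB1-overexpression against microglia of wild type mice, both taken before transient middle cerebral artery occlusion (tMCAO), the filament model of ischaemic stroke. It held 2 arrays labelled overexpression and 2 labelled wild type, 4 of the 12 samples of the study, and the members were taken by their group labels. The other 8 samples were ZEB1 knock-down microglia before tMCAO and microglia of all 3 genotypes after it, with 2 samples a group. Per the labels, all 4 samples came from 8-week-old male mice, and the microglia had been collected with magnetic beads against CX3CR1, the fractalkine receptor of microglia. How the overexpression was made, in which cell types it was active and whether a sample pooled several animals were not stated in the labels. The labels do not say that samples of one group came from separate mice. The p-values thus reflect only the spread between arrays of the same group, and that spread can be technical. It was pooled over the groups of all 8 arrays of the slide, and of all 12 arrays in the test of both times. RNA was hybridised to 1-colour Agilent arrays with Cy3, and a level below is the log2 of the processed signal minus the 75th percentile of its own array. The small number of arrays limits the precision of every value.

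ZEB1 is a zinc-finger homeodomain transcription factor that binds pairs of the E-box letters CAGGTG or CACCTG and recruits CtBP corepressors. It is best known for repressing epithelial junction and polarity genes, E-cadherin among them, and for acting downstream of TGF-beta. Microglia are the resident macrophages of the brain, and in the uninjured brain they carry a homeostatic program that depends on TGF-beta signalling and on CSF1R.

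The 4 arrays lay on 1 slide with 1 scan, with the overexpression arrays in row 2 (columns 1 and 2) and the wild type arrays in row 1 (columns 3 and 4), so slide position and genotype cannot be told apart. The scanner software had marked 23.7% and 18.2% of spots as non-uniform or outlying on the arrays labelled overexpression, against 3.28% and 1.26% on the wild type arrays. Probes well above background made up 62.7% and 60.4% on the overexpression arrays, against 73.3% and 70.5% on the wild type arrays. The standard deviation of the negative control spots was 9.88 and 13.2 on the overexpression arrays, against 5.09 and 4.99 on the wild type arrays. The same split was seen by slide column in another genotype: the other 2 arrays in columns 1 and 2, ZEB1 knock-down after tMCAO, had 20.8% and 23.5% of spots marked. The 2 row 2 arrays in columns 3 and 4, knock-down before tMCAO, had 1.87% and 1.03%. In this comparison the column goes with the genotype, and its part in the results was not tested. Levels per array and gene lists are therefore given with the marked spots kept. Differences of single genes come from the fit without marked spots, unless it is said that these were kept.

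**Figure D1:**
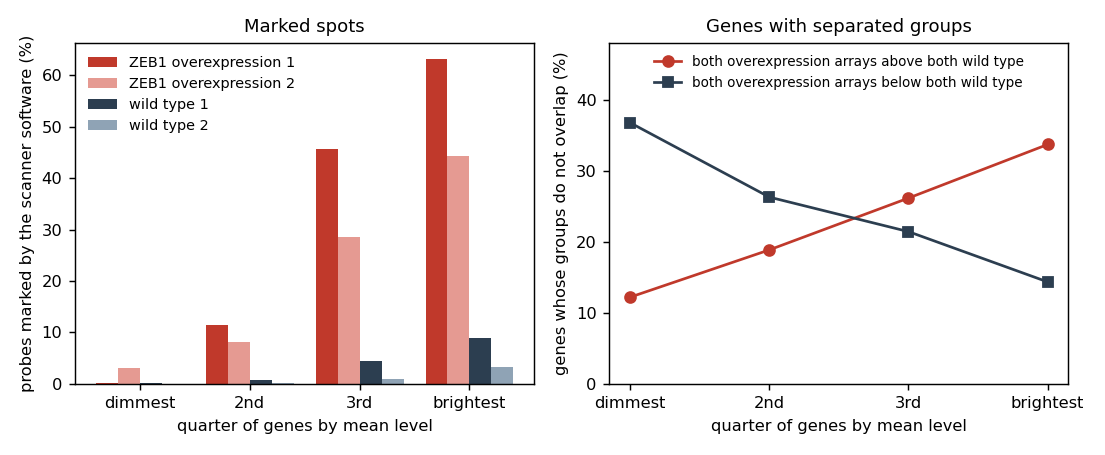
Left, the percent of genes whose spot was marked on each array, in 4 equal classes of mean brightness; right, the percent of genes whose 2 overexpression arrays lay above or below both wild type arrays, in the same classes. In the brightest class 63.2% and 44.4% were marked on the overexpression arrays, against 8.87% and 3.23% on the wild type arrays, and genes lower in overexpression made up 36.7% of the dimmest class and 14.3% of the brightest.

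Markers of the labelled cell type were present. All 16 homeostatic microglia genes on the array were well above background on all 4 arrays, and 9 of them lay above the 75th percentile on all 4. RNA of other brain cells was present too, since 12 of 14 neuron markers, 12 of 12 astrocyte markers and 11 of 14 oligodendrocyte lineage markers lay above the 75th percentile on all 4 arrays. The median level of the homeostatic microglia genes was 0.25 and 0.52 on the overexpression arrays, against 1.05 and 0.52 on the wild type arrays. For neuron markers it was 2.82 and 2.86 against 2.97 and 2.91, and for astrocyte markers 2.22 and 2.56 against 2.29 and 2.45. Markers of other brain cells thus read higher than those of microglia, and differences below cannot be credited to microglia alone. Of 16 lymphocyte markers, 7 were well above background on all 4 arrays and none lay above the 75th percentile on all 4.

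Replicate 1 of the arrays labelled overexpression went against its label of male. The Y-linked gene Ddx3y had a level of -8.03 on this array, against -1.68 to -0.32 on the other 7 arrays of the slide. Eif2s3y had -7.96 there and -0.44 to 0.64 on the other 7, and Kdm5d had -6.69 against -1.85 to -1.42. Uty had -7.85 there and -4.58 to -3.63 on the other 7. None of the 4 genes was well above background on this array, and all 4 were on the other 7. Xist, the RNA that coats the inactive X chromosome, had a level of -4.47 on this array, with -9.06 to -6.18 on the other 7. On this slide it was well above background on that array alone. On the second slide, of another array design, Xist was well above background on 1 of 4 arrays. It reached -4.25 on wild type replicate 2 after tMCAO, where Ddx3y had 0.05 and Eif2s3y 0.51. Such a Xist level thus does not by itself go against a male label. The sex-linked genes were chosen after their values were seen. Replicate 2 of the overexpression label alone, against the mean of the wild type arrays, is therefore also given for the gene lists described singly and for some of the genes below.

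**Figure D2:**
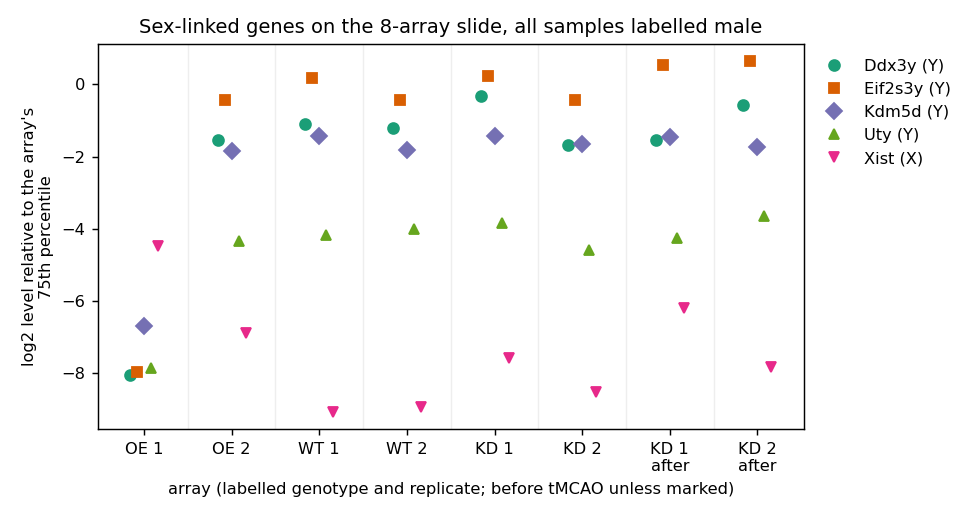
Levels of 4 Y-linked genes and Xist (log2 above the 75th percentile of each array) on the arrays of the slide, each point 1 array. Replicate 1 labelled overexpression lies below the other arrays for all 4 Y-linked genes and above them for Xist.

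Replicate 2 stood out in another respect, though other arrays varied in it too. The pituitary hormone gene Gh had -1.42 and 4.39 on the overexpression arrays, against 0.56 and 2.20 on the wild type arrays. Pomc, which encodes the precursor of ACTH, had 1.31 and 4.02 on the overexpression arrays, against 0.74 and 2.08 on the wild type arrays. Over 12 measured pituitary and salivary gland genes, the median difference from wild type was 3.58 for replicate 2 and -1.49 for replicate 1. The summed linear level of the list was 3.97 and 59.8 on the overexpression arrays, against 4.48 and 12.5 on the wild type arrays. The median level of its 14 genes was -4.70 and 0.79 on the overexpression arrays and -4.22 and -2.36 on the wild type arrays. On the knock-down arrays before tMCAO it was -1.80 and -0.77. None of the 12 separated the groups in either direction.

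Zeb1 itself served as a check of the labels. Its brighter probe had -0.28 and -0.36 on the overexpression arrays, against -0.57 and -0.59 on the wild type arrays. Both overexpression arrays lay above both wild type arrays, but the difference was 0.26 with all spots kept, with a 95% confidence interval of -0.36 to 0.87. With the marked spot of overexpression replicate 1 left out it was 0.22 ± 0.34 (SE), with a limma adjusted p of 0.858. The second Zeb1 probe had -0.42 and -0.31 on the overexpression arrays, against -0.40 and -0.64 on the wild type arrays, so the groups overlapped, with a difference of 0.15 (95% confidence interval -0.39 to 0.69). The knock-down arrays read -0.11 and -0.79 on the brighter probe, a range that spans all 4 values above. Neither probe thus showed a higher Zeb1 level under the overexpression label beyond the spread between arrays. Whether the introduced sequence contains that of these probes is not known from the labels. Its paralogue Zeb2, a repressor that microglia express, differed by -0.19 ± 0.17 on its brightest probe with marked spots kept.

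Across the transcriptome limma called 0 of 26121 genes at an adjusted p under 0.05, and 0 of 30077 with the marked spots kept, where 9.66% had an unadjusted p under 0.05. The smallest adjusted p was 0.130, for Galnt3. At an unadjusted p under 0.05 there were 2791 genes (10.7% of those tested), of which 2.41% of all genes were higher and 8.27% lower on the overexpression arrays. Of those lower, 57.1% were not well above background on both overexpression arrays, while 3.81% of those higher were not well above background on both wild type arrays. With the marked spots kept, 22.7% of genes had both overexpression arrays above both wild type arrays and 24.7% had both below, and the median difference was -0.01. The difference was positive for 48.3% of genes and negative for 51.7%. Overexpression replicate 2 alone gave 68 calls of 30821 genes (0.221%), 64 of them higher (0.208%), with marked spots kept, and 0 of 25599 with them left out. The counts of the gene lists below are to be read against these shares. Of the 8 Zeb, Snail and Twist family genes measured, 4 lay higher on both overexpression arrays and 1 lay lower, with a median of 0.06, and 0.18 in replicate 2 alone.

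These promoters are shown because they carry the ZEB1 letters at genes described below, chosen after their values were seen: Cldn3 and Crb3 of the epithelial list, which lay higher on the overexpression arrays, Ocln of the same list, which lay lower, and Galnt3, which had the lowest p of all. The sequences run from 250 bases before to 50 after the RefSeq transcription start on build GRCm38.p6, 5' to 3' on the gene's strand, with CAGGTG or CACCTG in capitals. Cldn3 lies at chr5:134985964-134986263 (plus strand), Crb3 at chr17:57061951-57062250 (plus strand), Ocln at chr13:100552449-100552748 (minus strand) and Galnt3 at chr2:66124744-66125043 (minus strand).
Cldn3: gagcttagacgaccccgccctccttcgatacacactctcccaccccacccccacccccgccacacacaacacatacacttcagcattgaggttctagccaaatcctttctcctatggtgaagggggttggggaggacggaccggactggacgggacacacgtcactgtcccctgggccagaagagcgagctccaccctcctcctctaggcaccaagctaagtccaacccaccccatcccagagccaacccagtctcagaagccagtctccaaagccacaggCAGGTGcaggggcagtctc
Crb3: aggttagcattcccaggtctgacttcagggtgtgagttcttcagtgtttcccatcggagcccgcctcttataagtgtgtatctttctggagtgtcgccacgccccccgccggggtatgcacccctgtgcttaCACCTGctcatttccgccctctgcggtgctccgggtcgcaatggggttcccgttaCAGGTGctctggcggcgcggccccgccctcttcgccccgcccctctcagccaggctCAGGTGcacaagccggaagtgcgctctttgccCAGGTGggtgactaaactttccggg
Ocln: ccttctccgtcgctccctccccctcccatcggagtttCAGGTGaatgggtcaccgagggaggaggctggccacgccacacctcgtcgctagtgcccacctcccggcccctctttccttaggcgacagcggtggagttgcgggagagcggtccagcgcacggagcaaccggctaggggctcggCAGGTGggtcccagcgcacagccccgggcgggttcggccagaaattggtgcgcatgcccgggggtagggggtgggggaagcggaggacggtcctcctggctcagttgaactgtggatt
Galnt3: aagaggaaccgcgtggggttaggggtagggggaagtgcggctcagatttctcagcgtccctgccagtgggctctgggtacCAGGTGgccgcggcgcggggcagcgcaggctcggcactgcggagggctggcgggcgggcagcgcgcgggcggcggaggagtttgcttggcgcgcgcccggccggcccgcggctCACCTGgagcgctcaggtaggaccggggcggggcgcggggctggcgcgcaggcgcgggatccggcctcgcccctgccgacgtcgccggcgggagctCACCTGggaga
The Cldn3 window holds 1 match, the Crb3 window 4, the Ocln window 2 and the Galnt3 window 3, counting both strands. A second RefSeq start of Ocln, not shown, has a window with 1 match. One of the 2 words was found in 18 of the 23 epithelial list genes with a promoter on record (78.3%) and in 6098 of 27025 genes overall (22.6%). The list has 36 genes, and those without a promoter on record, Cdh1 among them, were not searched. It was chosen as known ZEB1 repression targets, so its share can follow from that choice and says nothing about these arrays. A match in these letters is a description and not a binding site.

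Genes that ZEB1 is known to repress in epithelial cells lay slightly higher on the overexpression arrays. Of 32 measured genes of the epithelial list, 13 had both overexpression arrays above both wild type arrays and 4 had both below, with a median difference of 0.19 against -0.01 over all genes. Replicate 2 alone, the array with the highest pituitary and salivary gland level, gave a median of 0.27, and replicate 1 alone gave 0.19. Among the 28 members well above background on all 4 arrays, 10 lay higher and 4 lower, where all genes of that kind gave 26.2% and 20.3%. Cldn3, a claudin of epithelial tight junctions, had -4.64 and -4.46 on the overexpression arrays, against -5.90 and -5.69 on the wild type arrays. Its difference was 1.25 ± 0.42 (adjusted p = 0.408), and replicate 2 alone differed by 1.34. Crb3, a polarity protein of the Crumbs complex, had -4.19 and -4.27 on the overexpression arrays, against -4.77 on both wild type arrays, and differed by 0.54 ± 0.23 (adjusted p = 0.477). The desmosomal linker Dsp differed by 0.67 ± 0.28 (adjusted p = 0.471), the membrane serine protease St14 by 0.41 ± 0.16 (adjusted p = 0.451) and the hemidesmosome-associated Lad1 by 0.49 ± 0.16 (adjusted p = 0.380). Rab25, a GTPase of epithelial vesicle recycling, had -5.57 and -2.83 on the overexpression arrays, against -5.83 and -5.36 on the wild type arrays, so its wide difference rests on replicate 2. Other members lay the opposite way. The tight-junction gene Ocln had -3.95 and -3.73 on the overexpression arrays, against -3.16 and -3.56 on the wild type arrays, a difference of -0.48 ± 0.19 (adjusted p = 0.459). Cdh1, which encodes E-cadherin, differed by -0.30 ± 0.29 with marked spots kept. Every one of these genes missed the threshold.

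**Figure D3:**
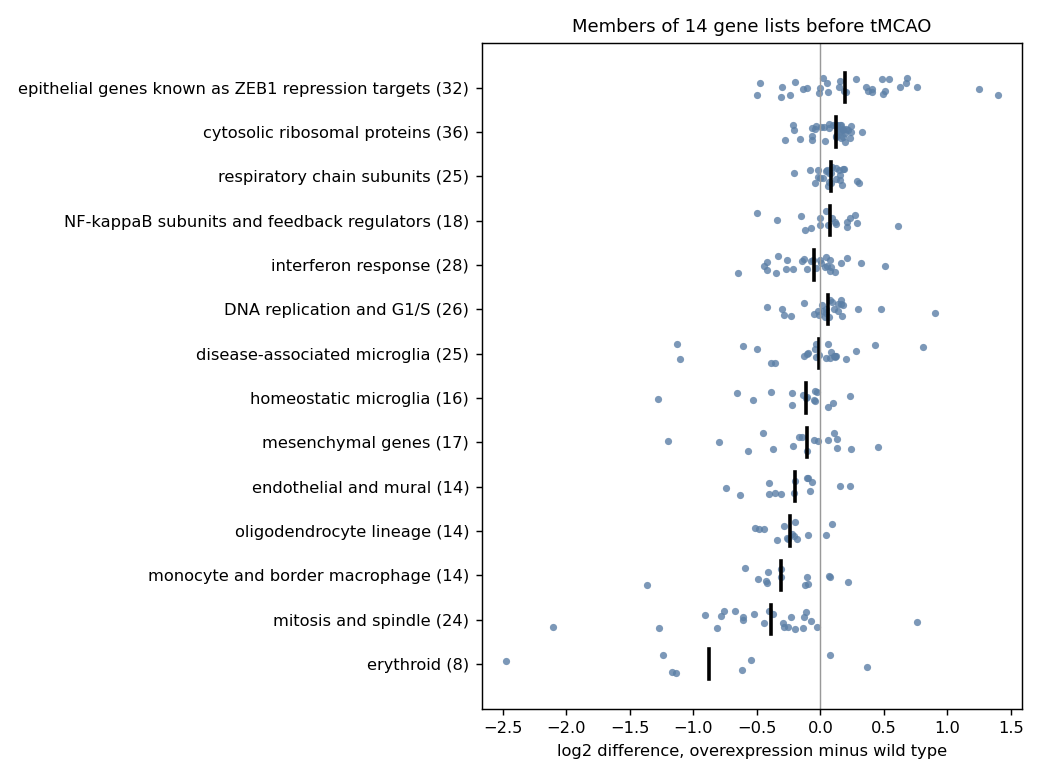
Log2 difference (overexpression minus wild type, marked spots kept) of each measured member of 14 gene lists, with the list median as a bar. The epithelial list has a median of 0.19 and the mitosis list one of -0.39, and members of every list lie on both sides of 0.

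The mesenchymal list, which ZEB1 programs raise in carcinoma cells, had a median of -0.10 over 17 genes, with 3 higher and 7 lower, and -0.05 in replicate 2 alone. Col1a1, the main fibrillar collagen chain, had -0.85 and 0.83 on the overexpression arrays, against 0.84 and 1.53 on the wild type arrays, a difference of -1.21 ± 0.78. The matrix glycoprotein Tnc differed by -0.45 ± 0.16 (adjusted p = 0.441). TGF-beta ligands, receptors and response genes had a median of 0.05 over 30 genes, with 7 higher and 3 lower, and 0.0019 in replicate 2 alone. The ligand Tgfb1 differed by -0.23 ± 0.29 (adjusted p = 0.819). Smad7, the inhibitory SMAD that TGF-beta signalling induces as feedback, was the member farthest from 0 with separated groups. It had -1.20 and -0.98 on the overexpression arrays, against -0.24 and 0.38 on the wild type arrays, while the knock-down arrays read 0.55 and 0.78. The difference was -1.16 ± 0.23 (adjusted p = 0.283) with marked spots kept.

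Single genes with the widest separation came from varied functions. Ctr9, a subunit of the PAF1 transcription elongation complex, had -3.29 and -3.09 on the overexpression arrays, against -1.29 and -1.39 on the wild type arrays, a difference of -1.85 ± 0.27 (adjusted p = 0.208). Retn, which encodes the secreted protein resistin, had -1.66 and -1.29 on the overexpression arrays, against -0.08 and 0.34 on the wild type arrays (-1.60 ± 0.25, adjusted p = 0.208). A second Retn probe gave -1.49, and the knock-down arrays, which were set against the same wild type arrays, read -1.49 and -1.13. The zinc-finger gene Zfp951 had -4.88 and -4.28 on the overexpression arrays, against -2.88 and -2.68 on the wild type arrays (-1.80 ± 0.25, adjusted p = 0.207). Its other probe gave -1.04. Ccdc146, a coiled-coil protein gene, differed by -1.67 ± 0.28 (adjusted p = 0.208) on one probe and by -0.30 on another, so its probes disagree in size. The same held for Ccnl1, a cyclin of the splicing machinery, with -1.18 ± 0.16 (adjusted p = 0.207) against -0.31 and -0.10 on the other probes. Galnt3, which starts mucin-type O-glycosylation, had -7.72 and -7.23 on the overexpression arrays, against -4.51 and -4.66 on the wild type arrays. It was not well above background on either overexpression array and was at least 1.78-fold lower there (adjusted p = 0.130). Nme8, a thioredoxin-domain gene of cilia and sperm, was at least 1.14-fold lower by the same rule, and Tmem74 at least 1.78-fold lower (adjusted p = 0.207 each).

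On the higher side, Dnah11, an axonemal dynein heavy chain, had -4.17 and -3.94 on the overexpression arrays, against -5.15 and -5.13 on the wild type arrays, a difference of 1.08 ± 0.15 (adjusted p = 0.207). Wfdc10, a whey acidic protein domain gene, differed by 1.33 ± 0.25 (adjusted p = 0.227) and Vash2, a tubulin carboxypeptidase, by 1.29 ± 0.26 (adjusted p = 0.236). Tff2, a trefoil peptide of mucus, had -5.09 and -4.09 on the overexpression arrays, against -6.41 and -7.08 on the wild type arrays, of which 1 was well above background. The odorant receptor gene Olfr224 had -1.39 and -4.46 on the overexpression arrays, against -9.04 and -8.89 on the wild type arrays. Both wild type values were not well above background, and the overexpression level was at least 13.6-fold higher (adjusted p = 0.208). Omp, the olfactory marker protein, had -1.62 and -3.06 on the overexpression arrays, against -5.99 and -5.79 on the wild type arrays (3.55 ± 0.98, adjusted p = 0.320). Rtp1, a chaperone of odorant receptors, differed by 1.73 ± 0.85 (adjusted p = 0.535). Mlana, a melanosome protein, had -2.28 and -1.62 on the overexpression arrays, against -3.89 and -4.44 on the wild type arrays (2.22 ± 0.97, adjusted p = 0.488), and the knock-down arrays read -2.49 and -5.66. Tyrp1, an enzyme of melanin synthesis, differed by 1.90 ± 0.70 (adjusted p = 0.437), with -3.42 and -5.63 on the knock-down arrays.

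**Figure D4:**
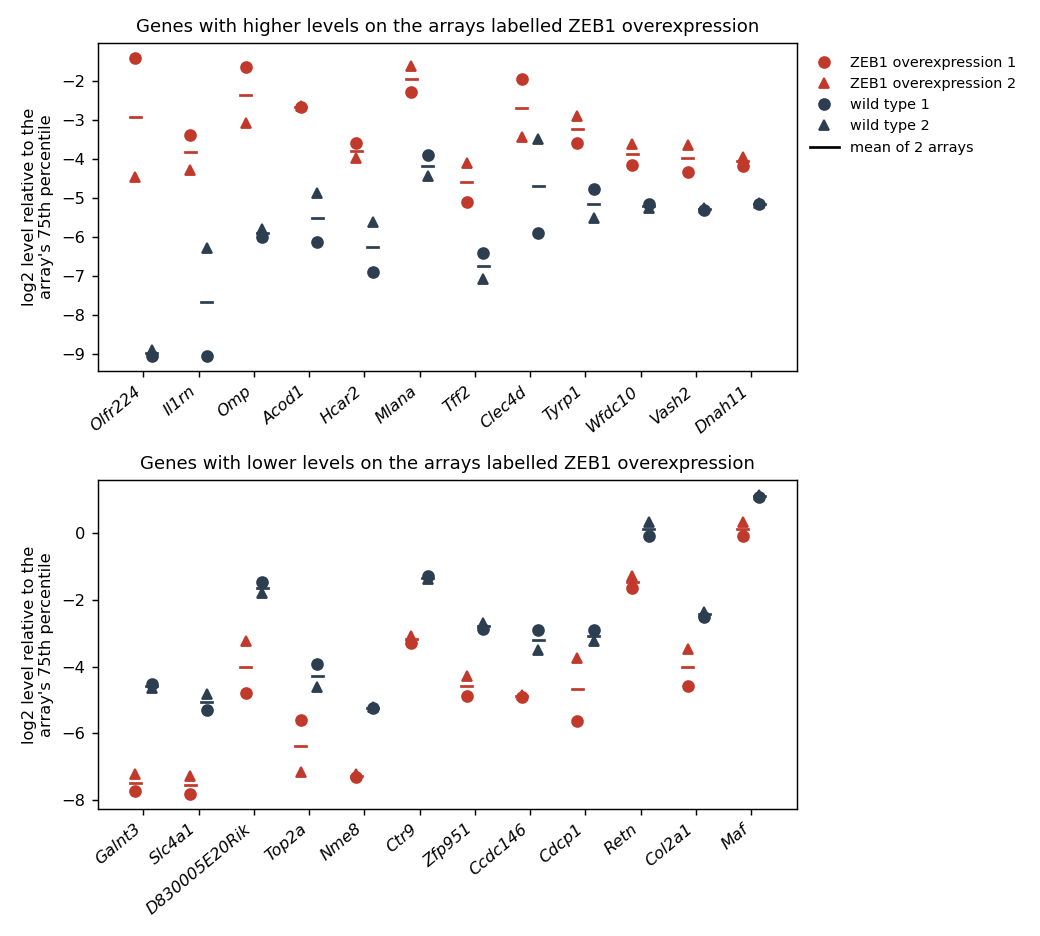
Levels (log2 above the 75th percentile of each array) of 12 genes that lay higher and 12 that lay lower on the overexpression arrays, each point 1 array. The genes were picked from this same comparison, so the separation of the 2 genotypes in every gene shown follows from the choice. None passed the adjusted threshold. For Galnt3, Nme8, Slc4a1, Top2a, Olfr224, Hcar2, Il1rn and Tff2 at least 1 array was not well above background.

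Several genes of the macrophage inflammatory response lay higher on both overexpression arrays, while others lay lower. Acod1, which makes itaconate in activated macrophages, had -2.67 and -2.63 on the overexpression arrays, against -6.12 and -4.87 on the wild type arrays. It differed by 2.84 ± 0.58 (adjusted p = 0.236), and replicate 2 alone by 2.86, while the knock-down arrays read -4.04 and -3.66. Hcar2, the niacin receptor of myeloid cells, had -3.58 and -3.96 on the overexpression arrays, against -6.89 and -5.60 on the wild type arrays (2.47 ± 0.48, adjusted p = 0.250). Il1rn, the interleukin-1 receptor antagonist, had -3.37 and -4.27 on the overexpression arrays, against -9.04 and -6.28 on the wild type arrays (3.84 ± 0.94, adjusted p = 0.312). Hcar2 and Il1rn were each well above background on wild type replicate 2 and not on replicate 1, so these differences include a value at background and their sizes are not fixed. Against replicate 2 alone they were 1.83 for Hcar2 and 2.46 for Il1rn. The C-type lectin Clec4d had -1.94 and -3.43 on the overexpression arrays, against -5.90 and -3.47 on the wild type arrays, a separation that hangs on wild type replicate 1. Among the interleukin-1 genes, Il1b differed by 0.41 ± 0.51. Il1a had a fitted difference of -1.88 but was not well above background on either overexpression array. The receptor gene Il1rl1 differed by -1.19, and the cytokine genes Il6 and Tnf by -1.01 and -0.82. Whether these 3 lay well above background on every array is not given here. The inflammatory caspase gene Casp4 had -4.73 and -4.11 on the overexpression arrays, against -3.06 and -3.42 on the wild type arrays (-1.18 ± 0.43, adjusted p = 0.430). Ptgs2, the inducible cyclooxygenase, had -1.54 and -1.83 on the overexpression arrays, against -1.19 and 0.54 on the wild type arrays (-1.36 ± 0.52 with marked spots kept, adjusted p = 0.494).

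The inflammatory lists lay near the median of all genes or only slightly away from it. The interleukin-1 family and inflammasome list had a median of 0.02 over 17 genes with 3 higher and 3 lower, and the inflammatory effectors -0.03 over 20 genes with 3 higher and 6 lower. Chemokines had a median of -0.16 over 22 genes with 3 higher and 3 lower. Replicate 2 alone gave 0.04 for the interleukin-1 list, -0.06 for the effectors and -0.12 for the chemokines. Ccl11, an eosinophil attractant, had -4.96 and -4.54 on the overexpression arrays, against -6.07 and -7.10 on the wild type arrays (1.63 ± 0.57 with the marked spot of overexpression replicate 2 left out, adjusted p = 0.455, and 1.11 against wild type replicate 1 alone, the one well above background). The monocyte attractant Ccl7 differed by -1.36 ± 0.53 (adjusted p = 0.464) and the neutrophil attractant Cxcl1 by -0.79 ± 0.81 (adjusted p = 0.769). Neither gene was well above background on every array, so these sizes include values at background and are not fixed. NF-kappaB subunits and feedback regulators had a median of 0.07 over 18 genes, with 8 higher and 1 lower, and the same median in replicate 2. Traf1, an adaptor of TNF receptors that NF-kappaB induces, had -2.92 and -2.72 on the overexpression arrays, against -3.51 and -3.36 on the wild type arrays (0.61 ± 0.22, adjusted p = 0.423). The interferon response had a median of -0.05 over 28 genes, with 3 higher and 4 lower, 0.09 in replicate 2 alone, and 0 at an unadjusted p under 0.05, against 9.66% of all genes. Complement genes had 0.03 over 19, MHC class I and immunoproteasome genes -0.04 over 14, and alternative activation genes -0.09 over 15, where replicate 2 alone gave -0.02, -0.03 and -0.09.

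The median of the homeostatic microglia genes leaned low. It was -0.11 over 16 genes, 13 of which were negative, and replicate 2 alone gave -0.13. On both overexpression arrays 4 of the 16 lay lower (25%) and none higher. Of all genes 24.7% lay lower and 22.7% higher, so the share lower was near that of all genes. Cx3cr1, the receptor used for the sort, had 0.15 and -0.00 on the overexpression arrays, against 1.17 and 0.28 on the wild type arrays (-0.65 ± 0.33, adjusted p = 0.544). Siglech, a sialic acid-binding lectin of microglia, had 0.17 and 1.04 on the overexpression arrays, against 1.41 and 2.36 on the wild type arrays. It differed by -1.28 ± 0.45 with marked spots kept, and another Siglech probe gave -0.17. Maf, a transcription factor of resident macrophages, had -0.09 and 0.34 on the overexpression arrays, against 1.07 and 1.13 on the wild type arrays, with 1.30 and 1.04 on the knock-down arrays. Its difference was -0.97 ± 0.19 (adjusted p = 0.283) with marked spots kept, and replicate 2 alone gave -0.76. The disease-associated microglia list had a median of -0.01 over 25 genes, with 6 higher and 6 lower, and 0.01 in replicate 2 alone. Its farthest members lay lower: Clec7a, the beta-glucan receptor dectin-1, had -6.90 and -7.01 on the overexpression arrays, against -5.71 and -5.95 on the wild type arrays (adjusted p = 0.208). Itgax, the integrin chain CD11c, had -7.25 and -7.33 on the overexpression arrays, against -6.12 and -6.25 on the wild type arrays (adjusted p = 0.703). Both were not well above background on the overexpression arrays, and no fold is given. Gpnmb, a glycoprotein of lipid-laden macrophages, lay higher by 0.43 ± 0.17. Outside this list, in that of cholesterol export, the apolipoprotein gene Apoc1 had 2.02 and 1.81 on the overexpression arrays, against 0.99 and 1.38 on the wild type arrays (0.73 ± 0.23, adjusted p = 0.364). In bulk samples fewer cells of a type and less RNA per cell cannot be told apart.

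Mitotic genes leaned low on the overexpression arrays. The mitosis and spindle list had a median of -0.39 over 24 genes, 23 of them negative, with 1 higher and 13 lower on both overexpression arrays. Of these 24 genes, 14 were in the dimmest class of 4, where 36.7% of all genes lay lower. Among the 15 well above background on all 4 arrays the median was -0.25, with 1 higher and 6 lower, and replicate 2 alone gave -0.42 over the whole list. Mki67, the proliferation antigen, had -5.10 and -4.50 on the overexpression arrays, against -3.12 and -3.94 on the wild type arrays (-1.27 ± 0.35, adjusted p = 0.349). Top2a, the topoisomerase of dividing cells, had -5.61 and -7.15 on the overexpression arrays, of which 1 was well above background, against -3.92 and -4.63 on the wild type arrays (-2.11 ± 0.54, adjusted p = 0.320). The centromere guardian Sgo1 differed by -0.67 ± 0.32 (adjusted p = 0.523), and Bub1b, a checkpoint kinase, by 0.76 ± 0.51. DNA replication and G1/S genes had a median of 0.06 over 26 genes, with 5 higher and 4 lower, and -0.0073 in replicate 2 alone. Mcm7, a subunit of the replicative helicase, had 0.89 and 0.57 on the overexpression arrays, against 0.24 and 0.26 on the wild type arrays (0.48 ± 0.16, adjusted p = 0.405).

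Erythroid and endothelial markers leaned low as well. The erythroid list had a median of -0.88 over 8 genes, with 1 higher and 6 lower, a median of -0.47 for replicate 2 alone, and a summed linear level of 7.46 and 10.1 on the overexpression arrays, against 14.6 and 16.7 on the wild type arrays. Of these 8 genes, 4 were in the dimmest class of 4, where 36.7% of all genes lay lower. Among the 5 well above background on all 4 arrays, 1 lay higher and 4 lower. The beta-globin gene Hbb-bt had 0.92 and 1.54 on the overexpression arrays, against 2.36 and 2.38 on the wild type arrays (-1.14 ± 0.48 with marked spots kept, adjusted p = 0.526). The red cell band 3 gene Slc4a1 was at least 1.27-fold lower (adjusted p = 0.208). Endothelial and mural markers had a median of -0.20 over 14 genes, 12 of them negative, with 2 higher and 7 lower, and replicate 2 alone gave -0.33. Tek, the angiopoietin receptor, had -3.67 and -3.71 on the overexpression arrays, against -2.99 and -3.14 on the wild type arrays (-0.63 ± 0.19, adjusted p = 0.362). The pericyte gene Rgs5 differed by -0.74 ± 0.26 with marked spots kept. In the other direction the water channel gene Aqp1 differed by 0.98 ± 0.29 with the marked spot of overexpression replicate 2 left out (adjusted p = 0.413). Monocyte and border macrophage markers had a median of -0.31 over 14 genes, with 0 higher and 4 lower (28.6%). Oligodendrocyte lineage markers had -0.24 over 14, with 0 higher and 5 lower (35.7%). Of all genes 24.7% lay lower, so the monocyte share was near that of all genes. Replicate 2 alone gave -0.26 and -0.31 for these lists. Neuron markers had -0.02 and astrocyte markers 0.06, with -0.03 and 0.09 in replicate 2 alone.

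Respiratory chain subunits lay slightly higher, with a median of 0.08 over 25 genes, 19 of them positive, 11 higher and 1 lower on both overexpression arrays, and 0.12 in replicate 2 alone. Cytosolic ribosomal protein genes had a median of 0.12 over 36, with 8 higher and 0 lower. Replicate 2 alone gave 0.23 and replicate 1 alone 0.03. With marked spots left out, the fit without replicate 2 gave -0.02. All 25 respiratory genes and 35 of the ribosomal genes were in the brightest class, where 33.7% of all genes lay higher and where 63.2% and 44.4% of spots of the overexpression arrays had been marked. The other 16 lists, chemokine receptors, Toll-like receptors, lysosome, glycolysis, immediate early genes, neutrophil and lymphocyte markers among them, had medians between -0.19 and 0.17. Of these 16 medians, only those of the chemokine receptors and the keratinocyte genes kept their sign under every alternative processing. That of the 13 neutrophil markers was -0.02, but -0.71 without wild type replicate 1 and 0.94 without wild type replicate 2.

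The same genotype difference was measured after tMCAO on a second slide, which allowed a test of whether it differed from that before tMCAO. Over 12699 genes shared by both array designs, limma called 110 (0.866%) at an adjusted p under 0.05 (18.4% had an unadjusted p under 0.05). Of these 110, 64 were more positive after tMCAO (0.504%) and 46 were more negative. Of the 66 called genes with a symbol, 13 had the larger genotype difference before tMCAO and the rest had the larger one after it. The 5 described here are all among those 13, so they do not stand for the called genes as a whole. Galnt3 differed by -2.89 before and 0.71 after (difference 3.60, adjusted p = 0.00261), and Olfr224 by 6.04 before and -0.55 after (difference -6.59, adjusted p = 0.0429). Dnah11 differed by 1.08 before and -0.49 after (difference -1.57, adjusted p = 0.0441). Zfp951 differed by -1.80 before and 0.25 after (difference 2.05, adjusted p = 0.0366), and Virma, a gene of the RNA methylation complex chosen after its values were seen, by -1.82 and 0.86 (difference 2.68, adjusted p = 0.0301). Galnt3 and Olfr224 were not well above background in 1 genotype before tMCAO, so these fitted differences rest on values at background. With values at background included, Galnt3 was called with each of 8 arrays left out in turn (adjusted p 0.00308 to 0.0323). All of these fits used overexpression values at background, so they cannot show that its difference is stable. The calls of the other 4 genes depended on single arrays: the call was lost in 7 of 7 such fits for Dnah11 (adjusted p up to 0.161), 6 of 8 for Olfr224 (up to 0.148), 6 of 8 for Zfp951 (up to 0.141) and 5 of 8 for Virma (up to 0.124). The slides differ in design and position, so slide and time cannot be told apart. Leaving out 1 array moved the count of 110 to between 4 and 188. It was 72 without overexpression replicate 1 before tMCAO, 30 without overexpression replicate 2 before, 48 without wild type replicate 1 before and 6 without wild type replicate 2 before. It was 128 without overexpression replicate 1 after tMCAO, 188 without overexpression replicate 2 after, 4 without wild type replicate 1 after and 62 without wild type replicate 2 after.

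**Figure D5:**
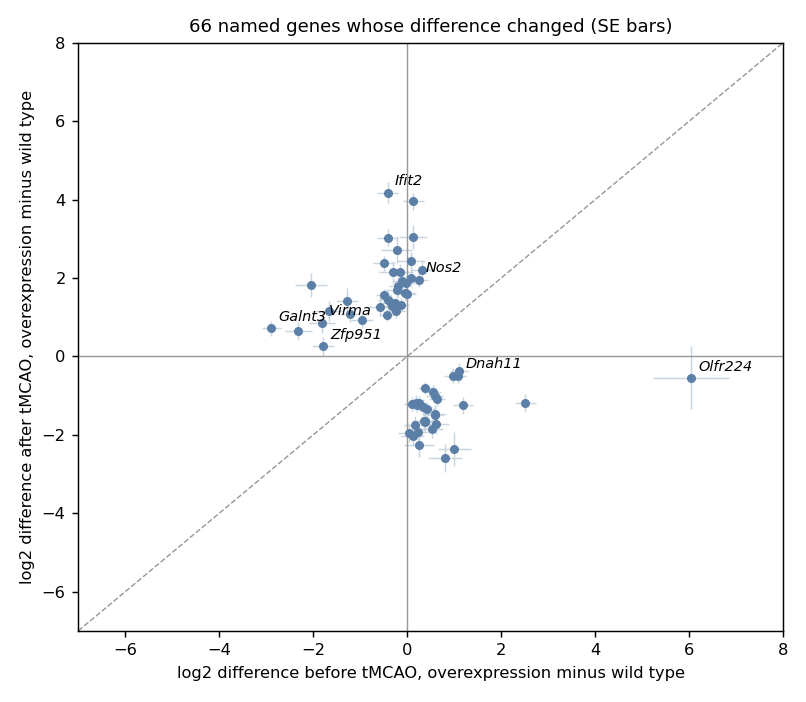
Genotype difference (log2, overexpression minus wild type) before tMCAO on the horizontal axis and after tMCAO on the vertical axis for the 66 called genes with a symbol, with standard errors as bars and equality as the dashed line. Galnt3 and Olfr224 lie far from the line on the side of a larger difference before tMCAO, where 13 of the 66 genes lie.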

How the data were processed

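Per the labels' protocols, RNA of CX3CR1-sorted microglia was labelled with Cy3 and hybridised to 1-colour Agilent arrays. The deposited scanner files give, per the file headers, an intensity for each spot (processed signal), background and outlier marks as 0 or 1 flags (other), and come from Feature Extraction 11.5.1.1, with mm9 as the build. The authors' deposited value table holds log2 values, and its columns matched the scanner values of these 4 arrays.

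Each intensity was log2-transformed and the array's 75th percentile was subtracted. Marked spots were left out (with all spots kept as the alternative), spots of a probe were averaged, and the probe with the highest mean stood for its gene. A gene was tested if both arrays of either group lay well above background. Of 56605 probes, 33767 (59.7%) were named through the accession in RefSeq tables. limma 3.58.1 in R 4.3.3 was fitted to all 8 arrays of the slide, with two-sided tests and Benjamini-Hochberg adjustment over all genes. An "at least" fold sets the measured mean of one genotype against the lowest level well above background in the other. The normexp alternative used median spot signals. The fit was tested on simulated data. The labels do not say that replicate numbers pair samples. Over 30717 probes the deviations of same-numbered samples had a correlation of 0.031, which cannot show whether the numbers pair them. At a replicate gap of 2 log2 units, replicate 2 was the higher in 59 of 61 genes in overexpression and 62 of 66 in wild type.

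Members and gene lists were chosen with earlier results of these data known. Named genes are Zeb1, the 10 lowest p in each direction, the 8 widest separated genes in each direction, list members at an unadjusted p under 0.05 with the 2 widest of each list, and Acod1, Hcar2, Il1rn, Tgfb1 and Cxcl1. Not every gene that met this rule is printed. Crb3, Dsp, Cdh1, Il1b, Tnf, Sgo1, Hbb-bt, Zeb2, Cx3cr1, the sex-linked genes, Gh, Pomc and Virma lie outside this rule and were chosen after their values were seen. Sequences of promoters are from RefSeq GRCm38.p6.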

Additional observations from a re-analysis of the deposited data

Results flagged for a closer look

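In the test of whether the genotype difference changed between the times, 110 genes were called. Of the genes described here, 5 were called: Galnt3 (3.60, after minus before), Virma (2.68), Zfp951 (2.05), Dnah11 (-1.57) and Olfr224 (-6.59), each tested with limma over all shared genes. Virma was chosen after its values were seen. These are values on a log2 scale. Galnt3 was not well above background on either overexpression array before tMCAO and Olfr224 on neither wild type array, so the sizes for these 2 rest on values at background. With 1 array left out at a time, Galnt3 kept its call in 8 of 8 fits and the other 4 genes lost theirs in 5 or more. The Galnt3 fits all used values at background, so they cannot show that its difference is stable. The 2 times lay on different slides, and the part of the slide was not tested.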

How the results depend on the processing

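With 2 arrays a group, the count of calls depended on single arrays. For overexpression against wild type before tMCAO, 0 genes were called. Quantile normalization gave 6, and 4 with marked spots kept. Averaging all probes of a gene gave 466, of which 409 had unequal numbers of unmarked probes between arrays, and 0 with marked spots kept. Leaving out 1 array gave 0 to 4, and 0 to 68 with marked spots kept, where 68 came without overexpression replicate 1 and 3 without overexpression replicate 2 or wild type replicate 2. The replicate block, with numbers not stated to pair the samples, gave 0 calls before tMCAO and 32 for the difference between the times. For that difference no filter gave 6 and leaving out 1 array 4 to 188 (with marked spots kept 71 and 26 without overexpression replicate 1 and 2 before tMCAO, and 64 and 11 without wild type replicate 1 and 2). Background correction with normexp moved the median of all genes to 0.117 and no filter moved it to 0.12. Under other settings some genes turned: Tgfb1 to 0.0098 with normexp and 0.0022 without overexpression replicate 1 (lowest -0.46 when leaving out 1 array), Siglech to 0.77 with the mean over probes, Tnf to 0.088 with normexp, and Cxcl1 to 0.15 without wild type replicate 2 (lowest -1.74, without wild type replicate 1). The cause was not tested. Over the named genes and their alternatives, 1640 values kept direction and side of the threshold and 12 passed it only under an alternative, Galnt3 at an adjusted p of 0.0134 with quantile normalization among them.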
